A study of Mus musculus with 16 samples.

Results

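The genes described here are 40 cell cycle and DNA replication genes, chosen by name from what they are known to do: cyclins, the mitotic kinase Cdk1, inhibitors of the cyclin-dependent kinases, DNA replication proteins, and proteins of mitotic entry, the spindle and mitotic exit. They were read in kidneys of Aqp11 knockout and wild-type mouse pups on Affymetrix whole-genome mouse arrays. The array annotation used here named a single-gene probe set (a group of short probes that together report a transcript) for 39 of the 40. The exception was Ccnb1, which was not analysed here. All 39 passed the filter on low signal, so 39 of the 12508 genes tested are members of this group. They comprise 8 genes for cyclins and their kinase, 2 for inhibitors, 11 for DNA replication and 18 for mitosis.

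A dividing cell passes from G1 through DNA synthesis (S phase) to G2 and mitosis (M phase), and each step is driven by a cyclin bound to a cyclin-dependent kinase. D-type cyclins act in G1 and release the E2F factors from the retinoblastoma protein, E2F switches on the genes for DNA replication, and a later wave of genes, controlled in part by the factor FOXM1 and by the DREAM and MuvB complexes, builds and runs the spindle. The newborn mouse kidney is still growing, with dividing tubule cells and the last nephrons forming in the first days after birth, so these genes are active in it. Aquaporin-11, the product of Aqp11, is a channel of the endoplasmic reticulum, and mice that lack it develop vacuolated proximal tubules and polycystic kidneys.

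The wild-type group (Aqp11+/+) had 7 pups, 3 male and 4 female, and the knockout group (Aqp11-/-) had 9, 5 male and 4 female. All were littermates from heterozygous crosses, 7 days old, of a line that began in 129/SvEvBrd and went through 10 to 11 back-crosses to C57/BL6 (strain label C57BL/6J). Aqp11 lies on chromosome 7, as do the members Ccnd1, Ccne1, Rrm1, Mki67, Plk1 and Prc1. Rrm1 is the nearest of them, 79 protein-coding genes from Aqp11. The part of 129 sequence kept near Aqp11 was not tested, for the members or for the further genes below. Each array held kidney RNA of a separate animal, and arrays are called by the numbers in their labels. Because whole kidney was measured, fewer cells of a type and less RNA per cell cannot be told apart. Values below are log2 of the quantile-normalized signal, and a difference of 1 is a doubling. Aqp11 itself checked the labels. Its signal ran from 7.72 to 8.11 in wild type, and 7 of 9 knockout arrays were at the floor of 2.78, with the highest at 3.69. The knockout signal was at least 30.3-fold lower (limma adjusted p = 3.84e-14). Before normalization the trimmed mean signal of the arrays ran from 111 to 236.

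Knockout array 1-2, from a female, stood apart for these genes. It gave the lowest knockout signal for 33 of the 39 members (84.6%, against 21.5% of all genes tested) and the lowest of all 16 arrays for 31 (79.5%, against 14.7%). It was also the brightest array before normalization. On it the 7 macrophage markers averaged 9.12, the highest of any array, where the other knockout arrays lay at or above 8.56 and wild type between 6.99 and 7.53; all 7 rose in knockout. The 6 proximal tubule markers averaged 9.49 on it, within the knockout range of 9.45 to 10.33 and below the wild-type range of 10.70 to 10.99; 5 of the 6 fell. The 4 endothelial markers averaged lowest on it, at 8.78, and 2 of the 4 fell. Of 5 erythroid markers 2 could be tested and 1 fell; set against the wild-type mean, those 2 averaged -1.45 on array 1-2, the lowest of any array, with the highest knockout array at -0.26 and the lowest wild-type array at -0.16. The mean of Havcr1 and Lcn2, the usual markers of tubule injury, was highest on it, at 10.12. Nephron progenitor markers, of which 4 of 7 could be tested and 1 fell, averaged 5.98 to 6.27 in wild type and 5.65 to 6.14 in knockout, and Six2 was at the floor on 1 array, Eya1 on 3 and Osr1 on 5. The part of cell makeup, brightness or this one array in the results that follow was not tested, and the members' differences are given with and without array 1-2. The choice to leave it out beside the main results was made after its values had been seen.

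With all 16 arrays, the cell cycle genes as a group changed little between genotypes, against a broad change in the rest of the kidney's genes. Of 12508 genes, 17.7% passed the test in either direction, 9.36% higher and 8.34% lower in knockout (limma, Benjamini-Hochberg adjusted p under 0.05 over all genes tested). Of the 39 members, none rose and 1, Ccnd1, fell. At an unadjusted p under 0.05 there were 3 members (7.69%), against 28.7% of all genes. No member separated the genotypes without overlap, while 5.34% of all genes did. The members leaned upward all the same: 30 of 39 (76.9%) had a higher knockout mean, against 50.7% of all genes, and their median log2 difference was 0.12, against 0.00. The 18 mitosis genes had a median of 0.15 with 16 positive, the 11 replication genes 0.06 with 8 positive, and the 8 cyclins and their kinase 0.06.

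**Figure D1:**
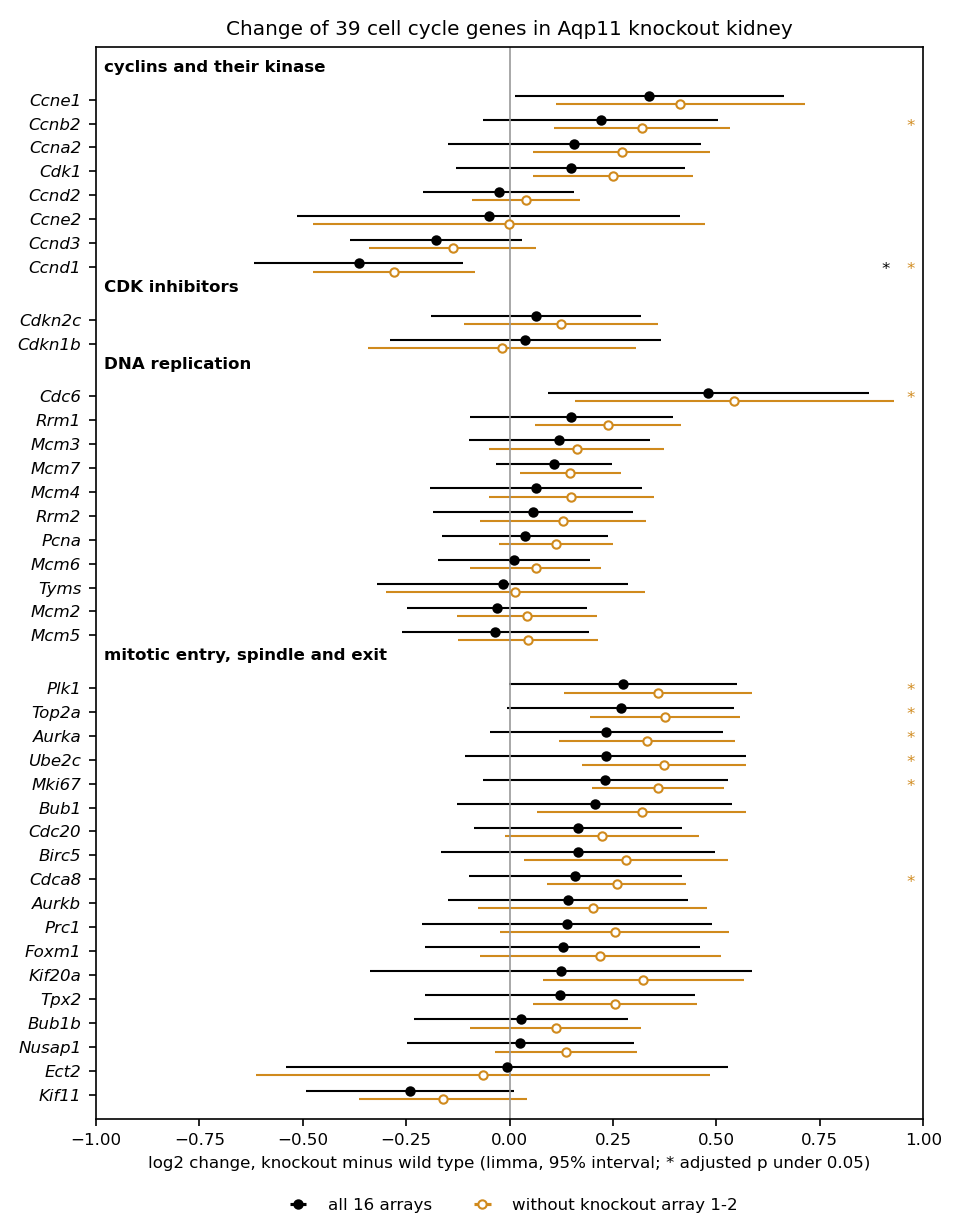
Log2 difference, knockout minus wild type, for each of the 39 measured members with its 95% confidence interval, with all arrays and with knockout array 1-2 left out. With all arrays Ccnd1 at -0.36 is the single member that passed; without array 1-2 most mitosis genes move to the right and 8 members pass on the higher side.

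Leaving out array 1-2 turned this lean into calls. The array was left out after its low values in these members had been seen. Higher differences and more rises without it follow, at least in part, from that choice. With 8 knockout and 7 wild-type arrays, 8 members rose (20.5%, against 9.49% of all genes) and Ccnd1 still fell (7.93% of all genes fell), so 9 members (23.1%) changed, against 17.4% of all genes. The median difference of the members was 0.20 (0.01 over all genes), and 33 of 39 were positive (84.6%, against 51.5%). Of the 8 that rose, 6 belong to mitosis: Mki67, Top2a, Aurka, Plk1, Cdca8 and Ube2c. The others were Ccnb2, a cyclin of mitotic entry, and Cdc6, which loads the replicative helicase. The same 8 rose when array 1-2 was removed before normalization, beside 9.50% of the genes tested then. Wild-type array 4-2 was the lowest in its group for 22 of the 39 members (56.4%, against 19.9% of all genes). When it was left out together with array 1-2, Ccne1, Mki67, Top2a and Ube2c rose and Ccnd1 fell. These were 5 changed members in all, beside 15.1% of all genes changed and 7.95% that rose.

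The spread of the members among knockout arrays turned on array 1-2. The standard deviation was larger in knockout than in wild type for 36 of the 39 members (92.3%, against 57.1% of all genes), and for 18 of the 18 mitosis genes. Without array 1-2 it was larger in knockout for 13 of the 39 (33.3%, against 51.2% of all genes) and for 6 of the 18 mitosis genes. The median standard deviation of the members was 0.23 in wild type and 0.32 in knockout, and without array 1-2 the knockout median was 0.17. Wild-type array 4-2, lowest in its group for 22 of the 39 members (56.4%, against 19.9% of all genes), was kept in these counts. Knockout array 1-2 was left out after its low values in these members had been seen. A smaller knockout spread without array 1-2 follows, at least in part, from that choice. Knockout array 2-3 lay at the other end. It was the highest knockout array for 15 of the 39 members (38.5%, against 12.2% of all genes), 10 of them mitosis genes. Averaged over the 39 members and set against the wild-type mean, array 1-2 lay at -0.54, the other 8 knockout arrays between 0.06 and 0.36, and the wild-type arrays between -0.17 and 0.13.

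**Figure D2:**
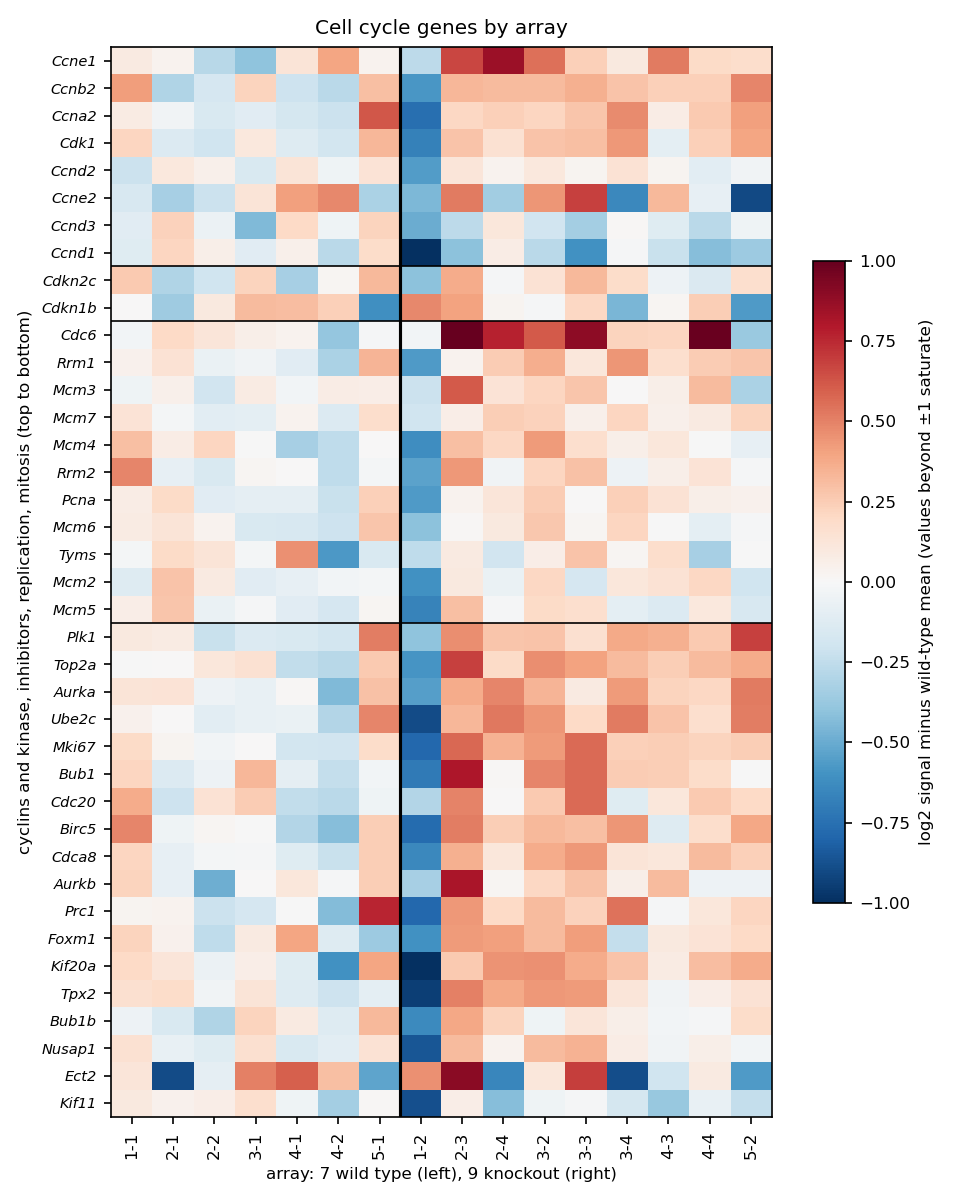
Log2 signal of the 39 members (rows, grouped by role) on the 16 arrays (columns), each as the difference from that gene's wild-type mean, with colours saturating beyond ±1. Knockout array 1-2 is low through nearly all mitosis and most replication genes. Ccnd1 is below its wild-type mean on 8 of the 9 knockout arrays and below every wild-type array on 6.

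Ccnd1 encodes cyclin D1, which with CDK4 or CDK6 carries signals from growth factors into the cell cycle. Its wild-type signal had a lowest value of 10.40, a median of 10.72 and a highest of 10.88, and its knockout signal 9.62, 10.31 and 10.74. The groups overlapped, but 8 of 9 knockout arrays lay below the wild-type mean and 6 lay below every wild-type array. The means were 10.67 ± 0.18 (SD, n = 7) and 10.30 ± 0.33 (SD, n = 9), a log2 difference of -0.36 (SE 0.12), or 1.29-fold lower (limma adjusted p = 0.0421, exact two-sided permutation p = 0.0153). All 3 Ccnd1 probe sets were lower in knockout. The brightest, 1448698_at, is the one above. Probe sets 1417419_at and 1417420_at differed by -0.32 and -0.29, and both passed when all 27399 testable probe sets were adjusted together (limma adjusted p = 0.00848 and 0.0262), where 11.7% of probe sets passed. They were the only 2 of 78 testable member probe sets that did, and 1448698_at had an adjusted p of 0.0577 there. The gene-level call sat close to its threshold. It was kept without array 1-2 (-0.28, limma adjusted p = 0.0444), and was lost when any one of wild-type arrays 1-1, 2-1, 2-2, 3-1, 4-1 and 5-1 or knockout arrays 2-3, 3-3, 4-4 and 5-2 was left out, with differences from -0.39 to -0.33 and limma adjusted p from 0.0516 to 0.0876.

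The other cyclins of G1 did not pass. Ccnd2 encodes cyclin D2, and its signal ran from 9.86 (median 10.13) to 10.21 in wild type and from 9.52 (median 10.11) to 10.22 in knockout. The difference was -0.03 with a 95% confidence interval of -0.21 to 0.16 (limma adjusted p = 0.883), and it was 0.04 without array 1-2. Ccnd3, for cyclin D3, ran from 8.79 (median 9.19) to 9.46 in wild type and from 8.74 (median 9.04) to 9.34 in knockout, a difference of -0.18 (limma adjusted p = 0.256), and -0.14 without array 1-2. In both genes the ranges of the genotypes overlapped. A dimmer Ccnd3 probe set gave 0.29 (limma adjusted p over probe sets = 0.391). Ccne1 encodes cyclin E1, which acts at the entry to S phase. It ran from 5.29 (median 5.73) to 6.09 in wild type and from 5.43 (median 5.93) to 6.55 in knockout, with 8 of 9 knockout arrays above the average of wild type, a difference of 0.34 (limma adjusted p = 0.154), but its other probe set gave -0.07. Without array 1-2 the difference was 0.41 (limma adjusted p = 0.0548). Ccne2, for cyclin E2, differed by -0.05 (limma adjusted p = 0.912), with a wider spread in knockout, from 4.88 to 6.48, than in wild type, from 5.46 to 6.27, and the difference was near 0 without array 1-2 as well.

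**Figure D3:**
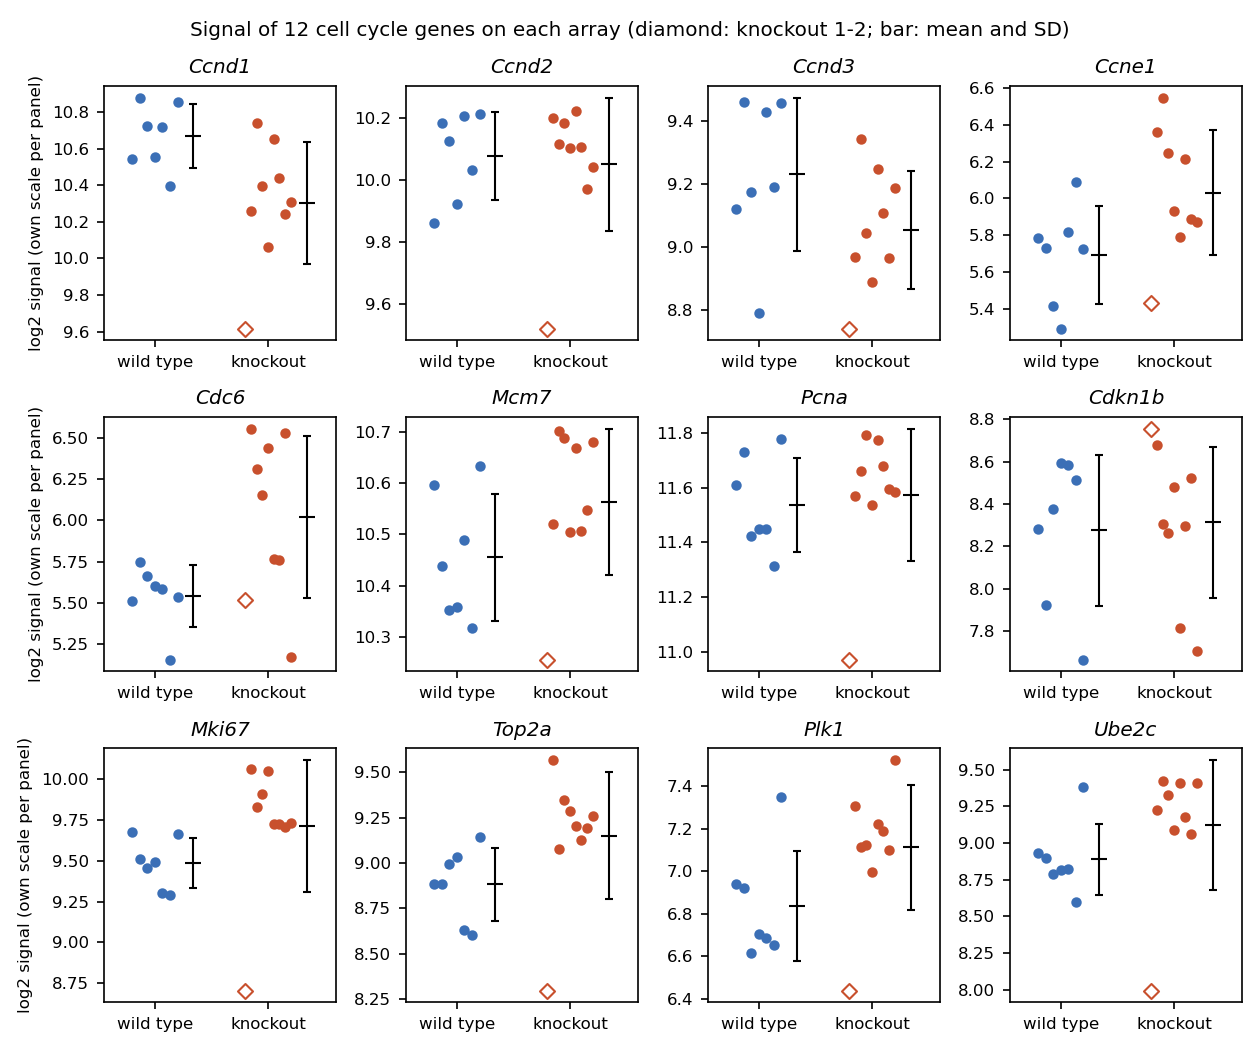
Log2 signal by array for selected members, wild type (7 arrays) beside knockout (9 arrays), with group means and standard deviations and array 1-2 marked. Ccnd1 sits lower in knockout, while for Mki67 and Top2a every knockout array but 1-2 lies above the wild-type mean.

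Neither inhibitor on the list passed. Cdkn1b encodes p27, which holds cyclin E and cyclin A kinases in check, and it had a wild-type range of 7.66 to 8.59 around a median of 8.38 and a knockout range of 7.71 to 8.76 around 8.31. Its difference was 0.04 (limma adjusted p = 0.908), and array 1-2, lowest for most members, was the highest knockout array for it. Without that array the difference was -0.02. Cdkn2c encodes p18, an inhibitor of CDK4 and CDK6. It ran from 7.28 (median 7.64) to 7.94 in wild type and from 7.20 (median 7.76) to 7.98 in knockout, a difference of 0.06 (limma adjusted p = 0.790), and 0.12 without array 1-2.

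Cyclins A and B and their kinase, which act in S phase, G2 and mitosis, did not pass with all arrays, and Ccnb2 passed without array 1-2. Cdk1 had a wild-type median of 8.63 (8.56 to 9.09) and a knockout median of 9.04 (8.08 to 9.19), a difference of 0.15 (limma adjusted p = 0.522). Ccna2, for cyclin A2, differed by 0.16 (limma adjusted p = 0.543) and Ccnb2, for cyclin B2, by 0.22 (limma adjusted p = 0.316). In all 3 array 1-2 gave the lowest value of the 16 arrays, and 7 (Cdk1) or 8 of the 9 knockout arrays exceeded the wild-type mean. Without array 1-2 the differences were 0.25, 0.27 and 0.32, with a limma adjusted p of 0.0342 for Ccnb2.

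Among the replication genes, Cdc6 had the largest difference. Its wild-type signal ran from 5.15 through a median of 5.58 to 5.75, and its knockout signal from 5.17 through 6.15 to 6.56. On 7 of 9 knockout arrays it was above every wild-type array; array 5-2 was the lowest knockout array here. The means were 5.54 ± 0.19 (SD, n = 7) and 6.02 ± 0.49 (SD, n = 9), a difference of 0.48, or 1.39-fold, which did not pass over all genes (limma adjusted p = 0.0841, exact two-sided permutation p = 0.0307). It passed with array 5-2 left out (0.59, limma adjusted p = 0.0160) and with array 1-2 left out (0.54, limma adjusted p = 0.0476).

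None of the other replication genes passed, with or without array 1-2. The MCM2-7 proteins form the helicase that unwinds DNA, and their 6 genes differed by -0.03 (Mcm2), 0.12 (Mcm3), 0.06 (Mcm4), -0.03 (Mcm5), 0.01 (Mcm6) and 0.11 (Mcm7). Without array 1-2 these were, in the same order, 0.04, 0.16, 0.15, 0.04, 0.06 and 0.15. With all arrays, dimmer probe sets of Mcm3 gave 0.06, -0.02, -0.05 and 0.004, and a dimmer one of Mcm5 gave 0.09. Mcm2 ran from 8.41 (median 8.50) to 8.82 in wild type and from 7.92 (median 8.63) to 8.74 in knockout (limma adjusted p = 0.888). Pcna, the sliding clamp that holds DNA polymerase to its template, ran from 11.31 (median 11.45) to 11.78 in wild type and from 10.97 (median 11.59) to 11.79 in knockout, a difference of 0.04 (limma adjusted p = 0.851), and 0.11 without array 1-2. In both, the ranges overlapped and array 1-2 gave the lowest value. Enzymes that supply deoxynucleotides did not pass either. The ribonucleotide reductase subunits Rrm1 and Rrm2 differed by 0.15 and 0.06, and thymidylate synthase, Tyms, by -0.02. Without array 1-2 they differed by 0.24, 0.13 and 0.01. Without array 1-2 all 11 replication genes had a positive difference, with a median of 0.13, and Cdc6 was the one of the 11 that passed.

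The mitosis genes had the highest median difference of the 4 groups. Mki67 encodes Ki-67, the coat protein of mitotic chromosomes used as the standard stain for dividing cells. Its wild-type signal ran from 9.29 (median 9.49) to 9.68 and its knockout signal from 8.70 (median 9.73) to 10.06. Each of 8 knockout arrays lay above every wild-type array, and array 1-2 lay below them all. With all arrays the means were 9.49 ± 0.15 (SD, n = 7) and 9.72 ± 0.41 (SD, n = 9) and the difference of 0.23 did not pass (limma adjusted p = 0.306, exact two-sided permutation p = 0.174). Without array 1-2 it was 0.36 (limma adjusted p = 0.00227, exact two-sided permutation p = 0.000155), and Mki67 was then the 1 member whose groups did not overlap, beside 5.73% of all genes. That separation followed from leaving out array 1-2, the only knockout array not above every wild-type array. This permutation p is the smallest that 8 knockout and 7 wild-type arrays can give.

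Top2a, the topoisomerase that untangles sister chromatids, followed the same course. It ran from 8.61 (median 8.89) to 9.14 in wild type and from 8.30 (median 9.20) to 9.57 in knockout, with 6 of 9 knockout arrays above every wild-type array. The difference was 0.27 with all arrays (limma adjusted p = 0.186) and 0.38 without array 1-2 (limma adjusted p = 0.00461). Plk1, a kinase of mitotic entry, ran from 6.62 (median 6.70) to 7.35 in wild type and from 6.44 (median 7.12) to 7.52 in knockout. Its difference was 0.27 with all arrays (limma adjusted p = 0.176) and 0.36 without array 1-2 (limma adjusted p = 0.0271). Aurka, the kinase of the spindle poles, ran from 6.49 (median 6.95) to 7.22 in wild type and from 6.38 (median 7.28) to 7.45 in knockout. Its difference was 0.23 (limma adjusted p = 0.273), and 0.33 without array 1-2 (limma adjusted p = 0.0281). In these 3 genes every knockout array but 1-2 exceeded the wild-type mean, and array 1-2 lay below the wild-type minimum.

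Genes for the ubiquitin ligase that ends mitosis and for the chromosomal passenger complex lay in the same direction. Ube2c, the ubiquitin-conjugating enzyme of the anaphase-promoting complex, differed by 0.23 with all arrays (limma adjusted p = 0.386) and by 0.37 without array 1-2 (limma adjusted p = 0.00858), and Cdc20, the activator of that complex, by 0.17 with all arrays and 0.22 without array 1-2. Of the passenger complex, Aurkb, Birc5 (survivin) and Cdca8 differed by 0.14, 0.17 and 0.16, and without array 1-2 by 0.20, 0.28 and 0.26, of which Cdca8 passed (limma adjusted p = 0.0306). The spindle checkpoint kinase Bub1 differed by 0.21, and by 0.32 without array 1-2. Its relative Bub1b differed by 0.03, and by 0.11 without array 1-2, while a dimmer Bub1b probe set gave -0.85 (limma adjusted p over probe sets = 0.0777), so its probe sets disagreed.

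Spindle motors and their partners differed in direction. Kif11, the motor that pushes the spindle poles apart, had the most negative difference of the mitosis genes, -0.24 (limma adjusted p = 0.196). It ran from 6.61 (median 6.99) to 7.11 in wild type and from 6.07 (median 6.77) to 7.01 in knockout, with 8 of 9 knockout arrays below the wild-type mean, and it was -0.16 without array 1-2. Probe sets 1452314_at and 1452315_at of Kif11 differed by -0.09 and -0.001, so a fall of this size rests on its brightest probe set. Kif20a, a motor of cytokinesis, had the widest gap at array 1-2, which read 5.33 where the next knockout array read 6.89. Its difference was 0.12 with all arrays and 0.32 without array 1-2 (limma adjusted p = 0.0628). The microtubule proteins Tpx2, Nusap1 and Prc1 differed by 0.12, 0.03 and 0.14, the factor Foxm1 by 0.13, and Ect2, the exchange factor that starts furrowing, by -0.01, with a standard deviation of 0.55 in wild type and 0.62 in knockout. Without array 1-2 these 5 genes differed, in the same order, by 0.25, 0.14, 0.25, 0.22 and -0.06. With all arrays a dimmer Prc1 probe set gave 0.51 (limma adjusted p over probe sets = 0.137). Neither these 5 genes nor Kif11 and Kif20a passed with or without array 1-2.

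Promoter letters were compared between the mitosis and replication genes. Windows from 250 bases before to 50 after the annotated start (RefSeq, build GRCm38.p6) were used for 30 of the 39 members. Any member window on 1 chromosome was left out, though that chromosome stayed in the share over all genes. The windows used were searched on both strands for the CHR element (TTTGAA), the CCAAT box (CCAAT) and E2F-type sites (TTTCGCGC, TTTGGCGC or TTTCCCGC). The CHR letters occurred in 11 of 14 mitosis promoters (78.6%), in 1 of 10 replication promoters (10.0%) and in 20.2% of 27025 genes with a window. The E2F-type letters occurred in 5 of 10 replication promoters (50%), in 0 of 14 mitosis promoters and in 2.12% of all. CCAAT occurred in 85.7% and 80.0% of the 2 sets and in 41.1% of all. A match describes letters only. In textbook terms, CHR elements bind the DREAM and MuvB complexes and E2F sites the E2F factors. Of the members with CHR letters, Ccnb2, Mki67, Top2a, Aurka, Plk1, Cdca8 and Ube2c rose without array 1-2. Cdk1, Mcm2, Cdc20, Bub1b, Kif11, Prc1 and Ect2 also held CHR letters and did not pass. Of the members with E2F-type letters Cdc6 rose without array 1-2, and Cdk1, Mcm3, Mcm5, Mcm6 and Mcm7 did not pass. None of these members with either kind of letters rose with all arrays, and a link between letters and change was not tested. Windows are printed for Mki67, Top2a, Plk1 and Ccnb2, which rose without array 1-2, and, as an E2F example, for Mcm6, which did not. They lie at chr7:135716330-135716629 (minus strand), chr11:99024140-99024439 (minus), chr7:122159185-122159484 (plus), chr9:70421505-70421804 (minus) and chr1:128359656-128359955 (minus). Capitals mark the matches to all 3 motifs on either strand, so TTCAAA and ATTGG are the CHR and CCAAT letters read from the other strand.
Mki67 promoter: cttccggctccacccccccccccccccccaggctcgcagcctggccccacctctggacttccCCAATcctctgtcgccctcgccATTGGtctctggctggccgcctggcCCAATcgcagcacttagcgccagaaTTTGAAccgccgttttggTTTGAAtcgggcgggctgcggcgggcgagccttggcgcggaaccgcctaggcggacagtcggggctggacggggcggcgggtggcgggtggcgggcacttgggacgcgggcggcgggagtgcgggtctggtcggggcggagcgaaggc
Top2a promoter: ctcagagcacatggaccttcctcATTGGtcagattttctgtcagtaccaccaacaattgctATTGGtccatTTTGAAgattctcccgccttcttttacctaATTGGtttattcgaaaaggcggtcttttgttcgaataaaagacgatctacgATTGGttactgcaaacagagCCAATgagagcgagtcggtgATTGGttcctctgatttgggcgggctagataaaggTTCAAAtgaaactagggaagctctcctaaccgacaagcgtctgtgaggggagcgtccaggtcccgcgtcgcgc
Plk1 promoter: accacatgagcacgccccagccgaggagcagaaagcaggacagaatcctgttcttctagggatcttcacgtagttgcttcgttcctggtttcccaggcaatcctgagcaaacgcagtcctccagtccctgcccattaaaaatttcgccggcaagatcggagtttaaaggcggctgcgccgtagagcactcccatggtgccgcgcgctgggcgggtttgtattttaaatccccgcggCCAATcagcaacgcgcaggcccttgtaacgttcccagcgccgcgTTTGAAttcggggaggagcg
Ccnb2 promoter: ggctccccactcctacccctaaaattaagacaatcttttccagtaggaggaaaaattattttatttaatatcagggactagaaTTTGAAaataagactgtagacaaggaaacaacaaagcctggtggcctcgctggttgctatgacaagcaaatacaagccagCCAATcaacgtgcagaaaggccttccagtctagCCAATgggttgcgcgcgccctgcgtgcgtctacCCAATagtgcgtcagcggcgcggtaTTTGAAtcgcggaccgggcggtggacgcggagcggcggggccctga
Mcm6 promoter: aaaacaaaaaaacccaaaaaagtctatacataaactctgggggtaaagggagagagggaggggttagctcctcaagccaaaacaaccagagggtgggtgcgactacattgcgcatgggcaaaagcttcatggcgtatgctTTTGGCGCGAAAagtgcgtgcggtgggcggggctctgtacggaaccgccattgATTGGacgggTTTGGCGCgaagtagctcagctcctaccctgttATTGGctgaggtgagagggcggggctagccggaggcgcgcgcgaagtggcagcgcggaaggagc

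Counting from the start site, the CHR letters began at -116 and -98 in Mki67, at -179 and, on the other strand, at -23 in Top2a, at 31 in Plk1 and at -167 and 5 in Ccnb2. Each of these 4 windows also held CCAAT letters, from 1 match in Plk1 to 6 in Top2a. In Mcm6 the E2F-type letters began at -110, -106 and -47, the first 2 of which overlap, and no CHR letters were in the window.

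Further cell cycle genes, listed by role with earlier results of these data known, were read from the same fit. Of 58 other mitosis genes, 2 rose and 1 fell (5.17%, against 17.7% of all genes), with a median of 0.16 and 51 of 58 positive. Cks1b, a small partner of the cyclin-dependent kinases, rose by 0.34 (limma adjusted p = 0.00153), from a wild-type median of 10.28 to a knockout median of 10.59. Kpna2, a nuclear import factor, rose by 0.30 (limma adjusted p = 0.0178). Spc25, a kinetochore protein, fell by 0.52 (limma adjusted p = 0.00717). All 3 calls were kept when each array was left out in turn, but with the mean over a gene's probe sets Spc25 did not pass (-0.30, limma adjusted p = 0.181). Leaving out wild-type array 1-1 or 4-1 gave 4 that rose and 1 that fell. Without array 1-2, 11 of the 58 rose and 1 fell (20.7%, against 17.4%), with a median of 0.23. Array 1-2 was the lowest knockout array for 50 of the 58 (86.2%, against 21.5% of all genes). The larger count of rises without it follows, at least in part, from leaving it out.

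Of 46 other replication genes, 1 rose and 1 fell (4.35%), with a median of 0.05 and 30 of 46 positive. Without array 1-2 the count of calls was the same, the median was 0.11 and 36 of 46 were positive. Dbf4, the activator of the origin-firing kinase, rose by 0.33 (limma adjusted p = 0.00529), with 7 of 9 knockout arrays above every wild-type array. Pold3, a subunit of DNA polymerase delta, fell by 0.51 (limma adjusted p = 0.00699). With the mean over a gene's probe sets Dbf4 did not pass (0.22, limma adjusted p = 0.0933). Pold3 did not pass that way either (-0.23, limma adjusted p = 0.112). Whether Pold3 lies in origin-strain sequence kept near Aqp11 was not tested. The part of such sequence in the fall of Pold3 was not tested either. Array 1-2 was the lowest knockout array for 37 of the 46 (80.4%, against 21.5% of all genes). In both wider lists the share of genes called was below the background with all arrays.

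**Figure D4:**
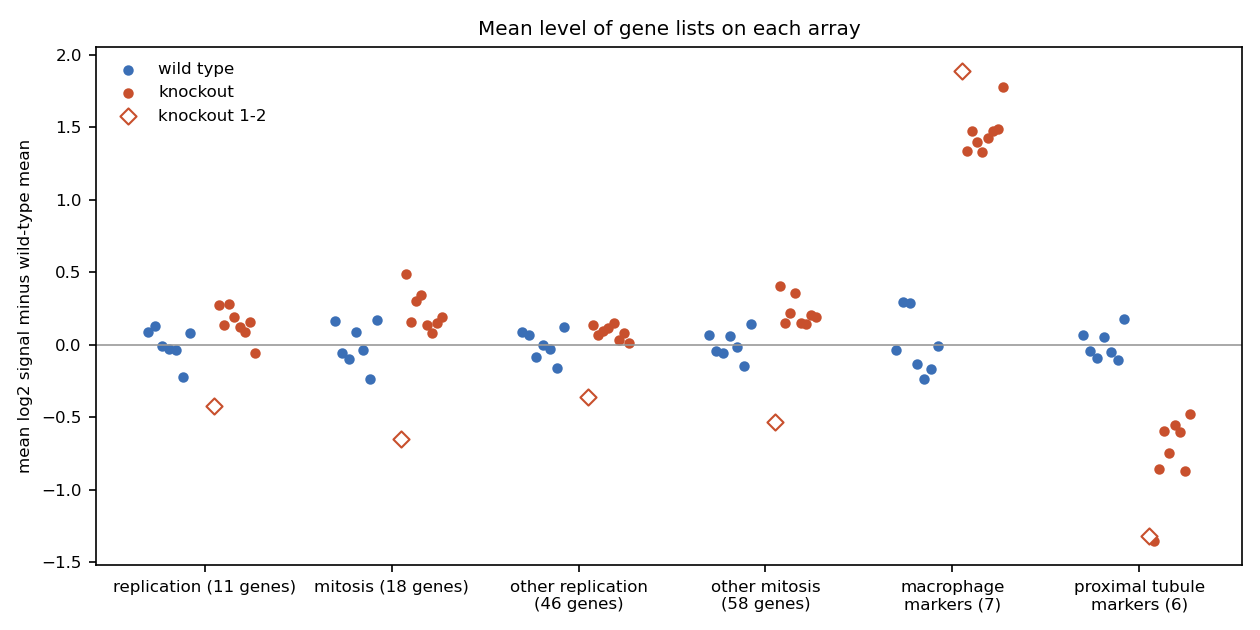
Mean log2 signal of each gene list by array, as the difference from the wild-type mean, for the member groups, the other cell cycle lists and the macrophage and proximal tubule markers. For the mitosis members array 1-2 lies at -0.65 and the other knockout arrays between 0.08 and 0.48; for macrophage markers array 1-2 is the highest at 1.89.

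Of 39 G1 and checkpoint regulators outside the list, 5 rose and 2 fell (17.9%, near the 17.7% of all genes), with a median of 0.02. Without array 1-2 the counts were the same and the median was 0.05. Myc, the growth-promoting factor, ran from 7.04 (median 7.41) to 7.56 in wild type and from 7.78 (median 8.13) to 8.57 in knockout. The groups did not overlap, and Myc rose 1.73-fold (log2 0.79, limma adjusted p = 3.59e-05). Cdk6, a partner of the D cyclins, ran from 9.22 (median 9.34) to 9.44 in wild type and from 9.56 (median 9.63) to 9.79 in knockout, again without overlap, and rose 1.23-fold (log2 0.30, limma adjusted p = 0.000367). Btg2, an antiproliferative gene, rose 1.39-fold (limma adjusted p = 0.000929), and Gadd45a, a stress-induced growth arrest gene, rose 1.34-fold without overlap (limma adjusted p = 0.00225). The kinase inhibitor gene Cdkn2b, which encodes p15, rose 1.89-fold (limma adjusted p = 0.0117), while Cdkn1c, for p57, and Rbl2, for the retinoblastoma relative p130, fell by 0.29 and 0.25 on the log2 scale (limma adjusted p = 0.0406 and 0.0407). The calls of the 5 genes that rose were kept when each array was left out in turn. That of Cdkn1c was lost without any one of arrays 1-1, 2-1, 2-3, 3-1, 3-3, 4-1, 4-2, 4-4 and 5-1, and that of Rbl2 without any one of 1-1, 2-1, 2-3, 2-4, 3-1, 3-3, 4-1, 4-3, 4-4 and 5-1, with limma adjusted p up to 0.0820 and 0.102. Cdkn2b, Cdkn1c and Rbl2 fall outside the rule for named genes and were named after their values were seen. Cdkn1a, for p21, did not pass and also falls outside that rule. It differed by 0.22 (limma adjusted p = 0.0622). With the mean over a gene's probe sets Cdk6 did not pass (0.30, limma adjusted p = 0.0685). On array 1-2 Myc, Gadd45a and Cdkn2b had their highest and Cdk6 and Cdkn1c their lowest knockout signal.

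The sexes gave no difference in effect that passed. The genotype by sex interaction passed for no gene and no member in limma. Its unadjusted p was under 0.05 for 10.8% of all genes and for 2 members, Ect2 and Cdkn1b, with limma unadjusted p = 0.00956 and 0.0258 and an adjusted p of 0.455 for both. In males alone, 3 members rose, Ccna2 (0.40, limma adjusted p = 0.0163), Top2a (0.35, limma adjusted p = 0.0425) and Ube2c (0.42, limma adjusted p = 0.0262), beside 6.54% of all genes. In females alone, which include array 1-2, none changed, beside 5.44% of all genes. The Ccnd1 difference was -0.20 in males (limma adjusted p = 0.365) and -0.53 in females (limma adjusted p = 0.0944), neither past the threshold. Between males and females of both genotypes, with genotype in the fit, no member passed, with 0.048% of all genes passing in limma. No member had an unadjusted limma p under 0.05, against 3.13% of all genes. The difference was toward males in 29 of 39 members (74.4%), against 52.1% of all genes. This comparison was not repeated without array 1-2, which came from a female.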

How the data were processed

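Kidney RNA of 16 pups was hybridised to 1 array each. The deposited table holds linear signal intensity, and the submitters' processing notes name GCOS 1.3. Scaling across arrays is not stated by the labels. Trimmed means (2% off each end) differed 2.12-fold, so intensities were quantile normalized, floored at the 20th percentile (a signal of 6.89) and taken to log2. A floor understates changes of dim genes, and quantile normalization hides a change in total mRNA. The number of arrays limits the precision.

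Of 45101 probe sets, 34945 name 1 gene in the platform annotation, 932 several, and 9211 are unlisted. Symbols were updated through RefSeq gene identifiers (34741 matched, 204 not). Each gene took its brightest probe set and entered the test if at least 7 arrays had it above their 40th percentile. Of 23 members with several testable probe sets, 16 had the same direction in all of them. Genotype was fitted with limma 3.58.1 in R 4.3.3 (lmFit, eBayes with a variance trend, Benjamini-Hochberg at 0.05 over 12508 genes). The fit was tested on simulated data. Single values used exact two-sided permutation over 11440 labelings, whose smallest p is 8.74e-05. The labels name separate animals, littermates, so the spread is between animals.

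The members and gene lists were chosen with earlier results of these data known. The text names all members, and gives in full the D cyclins, inhibitors, called members, the 6 others with the smallest p and usual representatives. Of each further list it names the genes that passed, or the 4 with the smallest p if more passed. The exceptions among the G1 and checkpoint regulators are stated with them. Alternatives covered scaling, floor, filter, probe set choice, limma settings, sex, brightness, the sample number as a block, and each array left out.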

Additional observations from a re-analysis of the deposited data

Results flagged for a closer look

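In groups of 7 and 9 arrays, an array was picked out where its gap to the nearest other array of its group was wide against the group's whole range (Dixon's 95% value); chance picks out about 1 group in 20. For 23 of the 39 members knockout array 1-2 was picked out as low, against 2.18% of all genes tested. Among the cyclins and their kinase its log2 signals were Ccnd2 at 9.52 (next 9.97), Ccna2 at 8.16 (next 8.99), Ccnb2 at 8.01 (next 8.83), Cdk1 at 8.08 (next 8.66). Among the replication genes they were Mcm2 at 7.92 (next 8.33), Mcm4 at 8.29 (next 8.82), Mcm5 at 8.51 (next 9.01), Mcm7 at 10.26 (next 10.50), Pcna at 10.97 (next 11.54), Rrm1 at 8.56 (next 9.15), Rrm2 at 9.22 (next 9.69). Among the mitosis genes they were Mki67 at 8.70 (next 9.71), Top2a at 8.30 (next 9.08), Bub1b at 6.49 (next 7.08), Aurka at 6.38 (next 7.02), Plk1 at 6.44 (next 7.00), Birc5 at 7.63 (next 8.27), Tpx2 at 6.54 (next 7.45), Kif20a at 5.33 (next 6.89), Cdca8 at 7.50 (next 8.26), Ube2c at 7.99 (next 9.06), Nusap1 at 7.36 (next 8.18), Prc1 at 6.84 (next 7.61).

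In wild type 6 of the 39 members had an array picked out. Array 5-1 was high for Ccna2 at 9.53 (next 8.99), Ube2c at 9.38 (next 8.93) and Prc1 at 8.39 (next 7.66). Array 4-2 was low for Cdc6 at 5.15 (next 5.51) and Kif11 at 6.61 (next 6.91). Array 1-1 was high for Rrm2 at 10.24 (next 9.76). Over all genes tested, 6.4% had an array picked out in wild type and 6.96% in knockout.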

How the results depend on the processing

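Over 39 alternatives the members' median difference of 0.12 stayed between 0.05 and 0.20, and no member passed the interaction with sex in any fit where it could be made. Of 1506 single-member values, 1460 kept their side of the threshold and, where called, their direction; 28 passed only under the alternative, 18 (all Ccnd1) no longer passed, and none that was called changed sign. Among values that passed in neither fit, 105 in 25 members changed sign.

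All genes changed numbered 2214, 1858 to 2209 with each array left out, 441 with deposited scaling, 1406 with the most variable probe set, 1417 in males, 681 in females, 1333 on brighter and 1175 on dimmer arrays. With deposited scaling 64.6% of calls were higher in knockout (285 higher, 156 lower), against 52.9%. Of the 143 further cell cycle genes, 8 rose and 4 fell in the main fit. With deposited scaling 1 of them rose and 0 fell, and in females 2 rose and 1 fell. Without array 1-2, 17 of them rose and 4 fell. Members changed numbered 1, from 0 to 9 with each array left out, 0 with deposited scaling, median centring, no filter, the most variable probe set, no variance trend, females or dimmer arrays, 5 with array weights (Ccne1, Cdc6, Top2a and Plk1 rose) or with arrays 1-2 and 4-2 both left out, 3 in males, and 9 with array 1-2 left out before normalization; the last setting and the pair were chosen after seeing the data.

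Ccnd1 at -0.36 stayed lower throughout, from -0.42 to -0.28 with each array left out. Its limma adjusted p ran from 0.00508 to 0.429 over the alternatives. It did not pass with deposited scaling (-0.36), median centring (-0.37), no filter, the most variable probe set or no variance trend (-0.36 each), in males (-0.20), in females (-0.53) or on dimmer arrays (-0.18), and on brighter arrays it was -0.59 (limma adjusted p = 0.0265). With the first number of the sample labels as a replicate block, 2654 genes (21.2%) and 1 member, Ccnd1 (-0.37, limma adjusted p = 0.0183), passed. No label ties this number to a litter, and arrays of both genotypes sharing it had deviations correlated at 0.0401, 0.129, -0.0129, 0.158 and 0.321, so it was not used as a pairing. The number of arrays limits the size of change that can be called, and no member was at the floor on any array.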
